A study of Mus musculus with 10 samples.

Results

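This account follows 10 genes of simple epithelium in mouse cells that were differentiated from embryonic stem (ES) cells and exposed to the dioxin TCDD (2,3,7,8-tetrachlorodibenzo-p-dioxin), which acts through the aryl hydrocarbon receptor. They are the keratins Krt7, Krt8, Krt18 and Krt19, the claudins Cldn4, Cldn6 and Cldn7, the adhesion molecule Epcam, the splicing regulator Esrp1 and the transcription factor Grhl2. They were taken by name from the 24540 genes that the count table names, and all 10 were among the 15175 genes that passed the filter on low counts. The 10 polyadenylated RNA libraries fall into 5 groups of 2, and the design sets ES cells against their differentiated progeny, and vehicle against increasing time in TCDD. All came from C57BL/6N-C2 ES cells that carry the plasmid pNkx2.5PuroIRES2eGFP, which ties puromycin resistance and eGFP to the promoter of Nkx2.5, a cardiac factor, and that were selected with G418. The ES group was undifferentiated, untreated and labelled as time 0. The other 4 groups were differentiated with Noggin and then BMP4, selected with puromycin and labelled cardiomyocytes. One of them received DMSO for 24 h, and the others 5 nM TCDD for 24, 72 or 96 h, with DMSO at no more than 0.05%. No DMSO group at 72 or 96 h was among the groups, so at those times exposure and time in culture cannot be told apart. The labels do not say whether the 2 libraries of a group came from separate cultures, so p-values reflect differences among libraries that could be technical.

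Simple epithelia are single layers of cells joined at their sides, and keratin filaments give them their mechanical strength. A filament pairs type II keratins, such as Krt7 and Krt8, with type I keratins, such as Krt18 and Krt19, and the Krt8 and Krt18 pair is the first to appear in the mouse embryo. Claudins form the strands of tight junctions, Epcam is an adhesion molecule of epithelial and ES cells, Esrp1 directs epithelial splice forms, and Grhl2 activates junction genes. The repressors Zeb1 and Zeb2, which bind the motif CACCTG, act against the epithelial state.

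Libraries held 15326612 to 31192459 counts. Of the pairs of libraries, DMSO agreed most closely, with a chi-square per degree of freedom of 3.23, followed by TCDD 96 h at 18.9, TCDD 24 h at 86.5, TCDD 72 h at 192 and ES cells at 197. These values do not say which library of a pair is the odd one. ES 2, TCDD 24 h 1 and TCDD 72 h 1 (the number is the replicate) are called the libraries that stood apart. Their counts varied most with GC content, over log2 ranges of 2.81, 1.47 and 1.34, against 0.323 to 1.13 in the others. TCDD 72 h 1 was also the shallowest library, with 10.95% of its counts on the ribosomal gene Rn45s against 1.45 to 4.22% in the others. In the libraries labelled cardiomyocytes, the summed level of 11 cardiomyocyte markers was only 29.4 to 40.6 CPM (counts scaled to library size), with Tnnt2, Myl2 and Pln below 1 CPM in every library. The sum of 6 pluripotency markers was 1719 to 3260 CPM in the same libraries and 3865 to 5224 CPM in ES cells. The cardiomyocyte sum was 10.5 and 10.8 CPM in ES cells. The groups are therefore named by their treatment and not by a cell type.

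The sequences before the transcript starts are shown for 4 members, since these genes carry the results that follow: Krt8 and Krt18 differed most between ES and DMSO cells, Cldn6 had the largest estimates of the members at 24 and 96 h of TCDD, and Epcam differed least from ES cells. They are RefSeq sequences of GRCm38.p6, the 250 bases before the start, written 5′ to 3′ on the strand of the gene, and capitals mark CACCTG or its reverse complement CAGGTG. Krt8 is read from the minus strand of chr15:102004343-102004592, and Krt18, which points the other way on the same chromosome, from the plus strand of chr15:102027966-102028215. Cldn6 is from the plus strand of chr17:23679115-23679364 and Epcam from the plus strand of chr17:87635729-87635978. The Cldn6 window ends at a transcript start that lies inside the gene's span.

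Krt8: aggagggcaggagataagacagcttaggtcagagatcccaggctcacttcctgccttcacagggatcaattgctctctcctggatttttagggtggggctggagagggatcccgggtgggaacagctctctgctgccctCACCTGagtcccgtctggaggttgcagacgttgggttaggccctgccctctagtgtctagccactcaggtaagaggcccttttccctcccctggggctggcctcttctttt
Krt18: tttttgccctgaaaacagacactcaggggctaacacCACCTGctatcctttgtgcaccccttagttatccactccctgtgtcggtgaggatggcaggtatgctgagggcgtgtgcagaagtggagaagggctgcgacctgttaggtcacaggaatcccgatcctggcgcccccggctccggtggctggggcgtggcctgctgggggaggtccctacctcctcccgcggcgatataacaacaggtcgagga
Cldn6: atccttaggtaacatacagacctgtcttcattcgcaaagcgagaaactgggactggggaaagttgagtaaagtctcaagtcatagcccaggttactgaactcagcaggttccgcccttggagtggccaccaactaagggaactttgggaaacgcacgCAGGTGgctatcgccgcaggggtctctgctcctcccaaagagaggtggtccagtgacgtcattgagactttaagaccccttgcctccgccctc
Epcam: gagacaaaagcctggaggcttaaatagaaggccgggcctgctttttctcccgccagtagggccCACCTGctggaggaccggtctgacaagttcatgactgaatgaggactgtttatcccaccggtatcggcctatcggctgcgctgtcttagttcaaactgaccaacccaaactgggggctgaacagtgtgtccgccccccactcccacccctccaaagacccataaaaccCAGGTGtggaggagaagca

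Of the 10 members, 7 were matched in the RefSeq promoter table, with 8 promoters in all because Cldn7 has 2 starts. CACCTG stood on either strand in 7 of these 8 promoters and in all 7 genes, namely Krt7, Krt8, Krt18, Cldn4, Cldn6, Cldn7 and Epcam, against 17.2% of the 32851 mouse promoters searched. The grainyhead motif AACCNGTT, or AACNGGTT on the other strand, was in 0 of the 8 promoters and in 1.79% of all promoters. GCGTG is the core of the element bound by the aryl hydrocarbon receptor. It or its reverse complement CACGC was in 5 of the 8 promoters and in 28.2% of all promoters. These 5 belong to 4 of the 7 genes (Krt18, Cldn4, Cldn6 and Cldn7). The letters of no motif contain those of another, and each match describes the sequence of this window, not binding.

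Between ES cells and DMSO cells, all 10 genes rose, from 1.68-fold for Epcam to 31-fold for Krt18. The edgeR quasi-likelihood test called 15.5% of all tested genes higher and 15.5% lower at an adjusted p under 0.05, or 31% in all, and 43.7% were under 0.05 unadjusted. The median log2 fold change of the 10 members was 3.13, and that of all tested genes was 0.01. For every member both DMSO libraries lay above both ES libraries, a pattern that 36.4% of all tested genes also had, with 35.1% the other way. Together the 10 genes took 0.0211% and 0.0209% of the counts in the ES libraries and 0.155% and 0.154% in the DMSO libraries. In bulk RNA, more cells expressing a gene and more RNA per cell cannot be told apart.

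Krt8 (Entrez 16691, chr15:101996711-102004342 in GRCm38), the type II keratin of early epithelia, measured 13.3 and 21.2 CPM in the ES libraries and 475 and 468 CPM in DMSO. It rose by a log2 fold change of 4.77 ± 0.37 (SE; adjusted p = 5.61e-05). Krt18 (Entrez 16668, chr15:102028216-102032026), its type I partner, measured 7.98 and 13.2 CPM in ES cells and 328.2 and 328.3 CPM in DMSO. The DMSO libraries were nearly level with each other and far above both ES libraries, and the log2 fold change was 4.95 ± 0.40 (adjusted p = 6.43e-05). Krt7 (Entrez 110310, chr15:101412403-101427806), a type II keratin of glandular and ductal epithelia, measured 3.46 and 4.75 CPM in ES cells and 43.55 and 44.4 CPM in DMSO, a log2 fold change of 3.42 ± 0.44 (adjusted p = 0.000643). Krt19 (Entrez 16669, chr11:100140810-100145926), the smallest type I keratin, measured 4.87 and 7.89 CPM in ES cells and 32.8 and 30.4 CPM in DMSO. Its log2 fold change of 2.31 ± 0.33 (adjusted p = 0.00111) was the smallest of the 4 keratins. Krt8 has transcripts that share at least 95% identity with those of 2 other genes, one of them a pseudogene, over as many as 941 bases, so some of its counts could come from them. Grhl2 has such a match with 1 gene over 124 bases, and Krt7 with 146 genes, 114 of them in the count table, over no more than 62 bases. The other 7 members have none.

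The claudins rose less than Krt8 and Krt18. Cldn6 (Entrez 54419, chr17:23679348-23682446), a claudin of embryonic epithelia, measured 9.79 and 16.7 CPM in the ES libraries and 98.3 and 91.4 CPM in DMSO, a log2 fold change of 2.84 ± 0.29 (adjusted p = 0.000205). Cldn7 (Entrez 53624, chr11:69964779-69967886), which is also found along the basolateral membrane, measured 6.38 and 9.94 CPM in ES cells and 30.3 and 32.3 CPM in DMSO, a log2 fold change of 1.94 ± 0.27 (adjusted p = 0.00105). Cldn4 (Entrez 12740, chr5:134945123-134946934), a sealing claudin, was already at 41.3 and 75.1 CPM in ES cells and reached 133 and 124 CPM in DMSO, a log2 fold change of 1.14 ± 0.29 (adjusted p = 0.0184). In all 3 claudins the ES libraries differed from each other more than the DMSO libraries did, with ES 2 the higher.

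Epcam (Entrez 17075, chr17:87635979-87651127) was the member with the highest mean level per kilobase of exon in ES cells. It measured 108 and 84.8 CPM there and 163 and 161 CPM in DMSO, a log2 fold change of 0.75 ± 0.21 (adjusted p = 0.0243). The calls of Cldn4 and Epcam depend on single libraries. For Cldn4 the adjusted p was 0.096 without DMSO 1, 0.0749 without DMSO 2 and 0.0718 when only the 4 libraries compared were fitted. For Epcam it was 0.0905 without ES 2, 0.131 without DMSO 1, 0.126 without DMSO 2, 0.0582 without TCDD 96 h 1, 0.0527 without TCDD 96 h 2, 0.0899 with only the 4 libraries and 0.0501 with the replicate number as a block. The other 8 members passed in each of 21 alternative fits.

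Both regulators rose. Esrp1 (Entrez 207920, chr4:11331933-11386783), an RNA-binding protein that favours epithelial exons in genes such as Fgfr2, measured 8.11 and 9.55 CPM in ES cells and 124 and 123 CPM in DMSO. Its log2 fold change was 3.8 ± 0.20 (adjusted p = 1.44e-05), and it ranked 12 by p among the 15175 genes. Grhl2 (Entrez 252973, chr15:37232821-37363569), the grainyhead factor, measured 4.43 and 2.06 CPM in ES cells and 45.4 and 46.2 CPM in DMSO, a log2 fold change of 3.81 ± 0.35 (adjusted p = 0.000112). Unlike the keratins and claudins, Epcam and Grhl2 were higher in ES 1 than in ES 2. Krt7, Krt8, Esrp1 and Grhl2 overlap annotated genes on the opposite strand. No source used here gives the strand setting of the counting, so reads of such partners cannot be told apart from theirs.

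**Figure D1:**
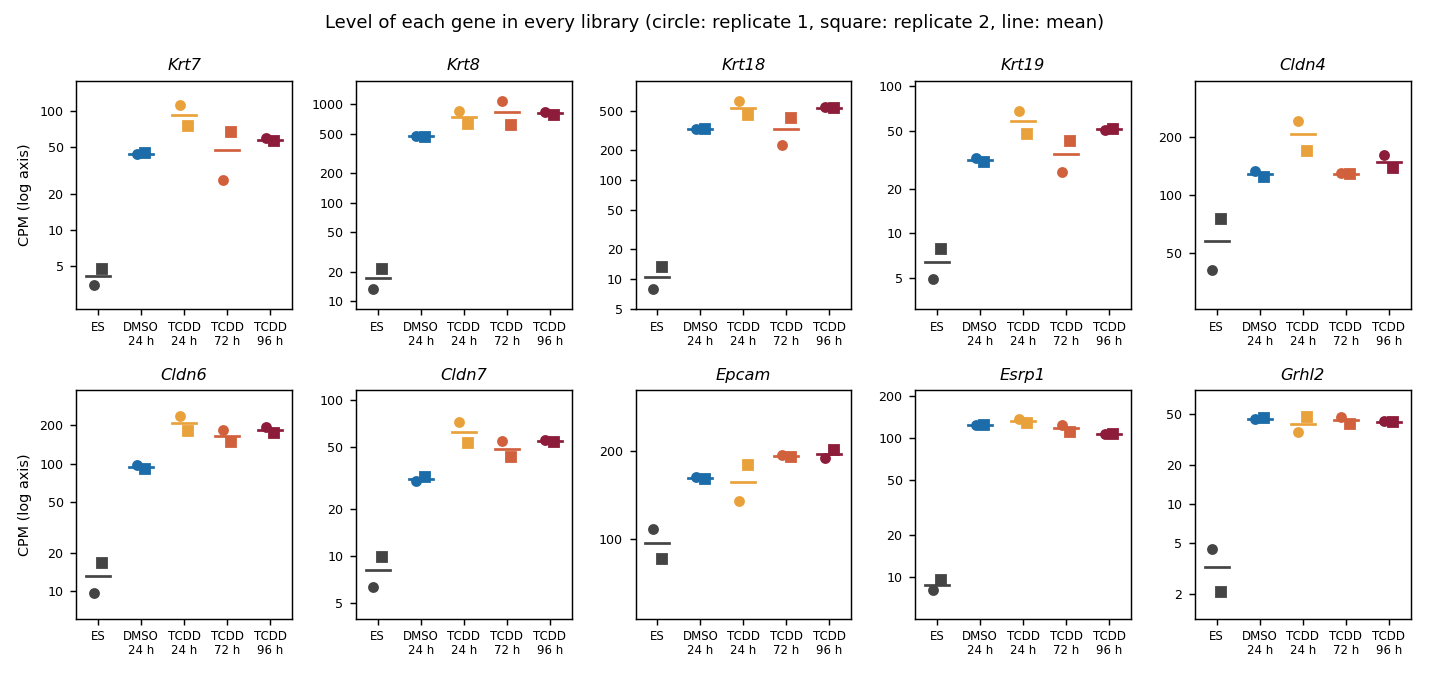
Level of each gene in CPM (log axis) in all 10 libraries, with circles for replicate 1, squares for replicate 2 and a line at the group mean. Both ES libraries lie below both DMSO libraries in every panel, and Krt8 and Krt18 part from each other in TCDD 72 h replicate 1, at 1071 and 224 CPM.

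**Figure D2:**
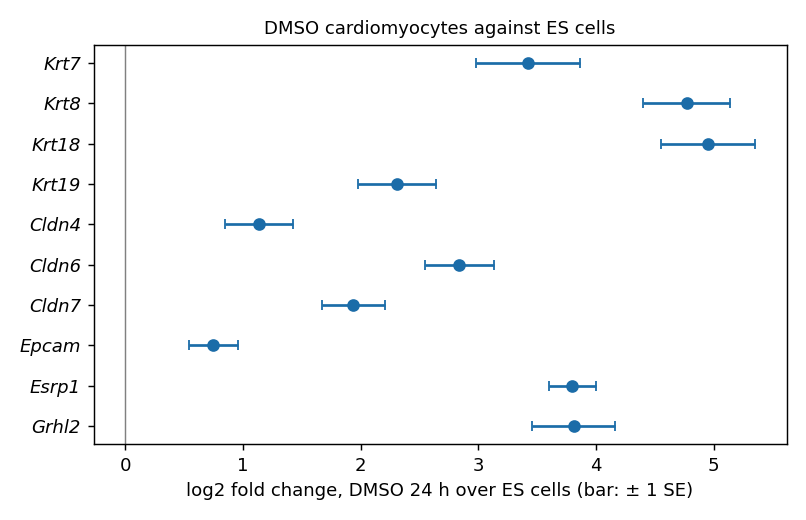
Log2 fold change of each gene between DMSO 24 h and ES cells, as points with bars of 1 SE from the edgeR fit. The estimates run from 0.75 for Epcam to 4.95 for Krt18, and all lie to the right of 0.

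Per kilobase of exon, the order of the 10 genes differed between the groups. In ES cells Epcam (46.7 CPM per kb) and Cldn4 (32.0 CPM per kb) led and overlapped each other. Krt8, Cldn6, Krt18, Cldn7 and Krt19 followed at 8.81 to 4.05 CPM per kb, each overlapping its neighbour, and Grhl2 was lowest at 0.608 CPM per kb. In DMSO Krt8 (241 CPM per kb) and Krt18 (228 CPM per kb) led, followed by Epcam (78.5), Cldn4 (70.7), Cldn6 (55.1) and Esrp1 (31.1, all CPM per kb). Cldn7 (21.2 CPM per kb) and Krt19 (20.1 CPM per kb) overlapped each other, and Krt7 (10.7 CPM per kb) and Grhl2 (8.59 CPM per kb) came last. In TCDD 24 h the pair Krt8 (378 CPM per kb) and Krt18 (374 CPM per kb) overlapped, and so did Cldn6 (120.5 CPM per kb) and Cldn4 (113 CPM per kb), both above Epcam (76.1 CPM per kb). In TCDD 72 h Krt8 (429 CPM per kb) led Krt18 (225 CPM per kb), and Cldn6 (96.7 CPM per kb) overlapped Epcam (93.1 CPM per kb). In TCDD 96 h the order began with Krt8 (412), Krt18 (372), Cldn6 (108), Epcam (95.0) and Cldn4 (81.9, all CPM per kb), with no overlap between neighbours. Cldn6 thus stood below Epcam and Cldn4 in DMSO by its mean level per kb, and above both by its mean in each of the 3 TCDD groups.

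In TCDD for 24 h, the mean levels of the keratins and claudins were 1.57 to 2.19 times those in DMSO, and Esrp1 and Grhl2 differed from DMSO by log2 estimates of at most 0.10 and no less than -0.21 at the 3 times. No member passed the threshold at any time. The 3 comparisons share the same 2 DMSO libraries, so their values are set side by side and are not independent of each other. At 24 h edgeR called 0% of all tested genes, with 1296 genes (8.54%) and 5 of the 10 members at an unadjusted p under 0.05. DESeq2 called 41 genes at 24 h and limma-voom 0, neither with a member among them. At 72 h edgeR called 0.0461% of genes (0.00659% higher, 0.0395% lower), with 0 members among them and 3 members at an unadjusted p under 0.05 against 14.6% of all genes. At 96 h it called 0.0857% (0.0395% higher, 0.0461% lower), with 0 members among them and 3 members at an unadjusted p under 0.05 against 12.2% of all genes. DESeq2 called 310 and 249 genes at these times and limma-voom 5 and 19, again with 0 members. The median log2 fold change of the members was 0.69, 0.11 and 0.54 at 24, 72 and 96 h, and that of all genes 0.02, 0.03 and 0.01.

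Cldn6 had the largest estimate at 24 h and at 96 h. It measured 235 and 180 CPM at 24 h, 184 and 149 CPM at 72 h, and 195 and 176 CPM at 96 h. All 6 TCDD libraries lay above both DMSO libraries, and the log2 fold changes were 1.13 ± 0.27, 0.81 ± 0.27 and 0.97 ± 0.27 (adjusted p = 0.521, 0.22 and 0.176). Cldn7 measured 72.0 and 52.8 CPM at 24 h, 54.6 and 42.9 CPM at 72 h, and 55.5 and 53.6 CPM at 96 h. It too was above DMSO in all 6 libraries, with log2 fold changes of 0.99, 0.64 and 0.80, each ± 0.26 (adjusted p = 0.521, 0.302 and 0.238). Cldn4 measured 241 and 169 CPM at 24 h, 130 and 128 CPM at 72 h, and 160 and 138 CPM at 96 h. Its 72 h libraries lay within the DMSO range, and its log2 fold changes were 0.68, 0.00 and 0.21, each ± 0.29 (adjusted p = 0.521, 1 and 0.917).

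Krt8 measured 853.5 and 625 CPM at 24 h, 1071 and 610 CPM at 72 h, and 837 and 775 CPM at 96 h. All 6 libraries exceeded DMSO, with log2 fold changes of 0.65, 0.83 and 0.77, each ± 0.32 (adjusted p = 0.521, 0.273 and 0.363). The 72 h estimate ran from 0.37 to 1.16 with single libraries left out, and was 0.35 without the 3 that stood apart. Krt18 measured 620 and 453 CPM at 24 h, 224 and 422 CPM at 72 h, and 542 and 526 CPM at 96 h. It was above DMSO in every TCDD library except TCDD 72 h 1, with log2 fold changes of 0.71, -0.02 and 0.70, each ± 0.33 (adjusted p = 0.521, 0.99 and 0.458). Krt7 measured 112 and 74.6 CPM at 24 h, 26.5 and 67.2 CPM at 72 h, and 59.7 and 55.7 CPM at 96 h. Krt19 measured 67.9 and 47.7 CPM at 24 h, 26.2 and 42.6 CPM at 72 h, and 50.6 and 51.3 CPM at 96 h. In both genes TCDD 72 h 1 was the only TCDD library below DMSO. The log2 fold changes of Krt7 were 1.08, 0.09 and 0.39, each ± 0.39 (adjusted p = 0.521, 0.953 and 0.845), and those of Krt19 0.87, 0.12 and 0.69, each ± 0.31 (adjusted p = 0.521, 0.91 and 0.414).

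Epcam measured 135 and 179 CPM at 24 h, 193 and 191 CPM at 72 h, and 190 and 202 CPM at 96 h. Its 24 h libraries lay on either side of DMSO and its later ones above, with log2 fold changes of -0.04, 0.25 and 0.27, each ± 0.21 (adjusted p = 0.918, 0.655 and 0.743). Esrp1 measured 136 and 128 CPM at 24 h, 123.5 and 111 CPM at 72 h, and 106 and 107 CPM at 96 h. Both 24 h libraries were above DMSO and both 96 h libraries below it, with log2 fold changes of 0.10, -0.07 and -0.21, each ± 0.18 (adjusted p = 0.764, 0.906 and 0.783). Grhl2 measured 36.3 and 47.5 CPM at 24 h, 46.9 and 42.1 CPM at 72 h, and 43.9 and 43.2 CPM at 96 h. Its libraries lay on either side of, or within, the DMSO range at 24 and 72 h and just below it at 96 h, with log2 fold changes of -0.13, -0.04 and -0.07, each ± 0.30 (adjusted p = 0.827, 0.974 and 0.984).

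At 24 h 8 members had both TCDD libraries above both DMSO libraries, namely the 7 keratins and claudins and Esrp1, where 35.5% of all genes did and 33% had both below. At 72 h this held for 4 members (Krt8, Cldn6, Cldn7 and Epcam) against 29% of all genes, with 26.6% below and no member among them. At 96 h it held for 8 (the 7 keratins and claudins and Epcam) against 34.5%, while Esrp1 and Grhl2 were below, as were 32.2% of all genes. Krt8, Cldn6 and Cldn7 were above DMSO in all 6 TCDD libraries, as were 11.3% of all genes, and 10.2% were below in all 6. Without TCDD 72 h 1 this extended to 6 members, with Krt7, Krt18 and Krt19 added, against 17.2% of all genes, with 13.9% below.

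The calls in TCDD depended on which libraries were fitted. Without ES 2, TCDD 24 h 1 and TCDD 72 h 1, the spread came from the DMSO and TCDD 96 h pairs alone, and single libraries were assumed to vary like those. That fit leaves a single library in the ES, TCDD 24 h and TCDD 72 h groups. Its counts of genes called are listed only with the other processing choices. Its log2 fold changes in TCDD are given here without calls. At 24 h those of Krt7, Krt8, Krt18, Krt19, Cldn6 and Cldn7 ran from 0.41 for Krt8 to 0.92 for Cldn6. Cldn4 was at 0.40, Epcam at 0.15, and Esrp1 and Grhl2 at 0.06. At 72 h the keratins, Cldn6 and Cldn7 ran from 0.34 for Krt18 to 0.63 for Cldn6. At 96 h they ran from 0.38 for Krt7 to 0.95 for Cldn6, with Epcam at 0.26 and Esrp1 at -0.23. Fitting only the 4 libraries of the 96 h comparison called 8 members, 7 of them higher, among 4383 genes. Of these genes 2168 were higher and 2215 lower, and their share of the genes tested in that fit was not computed. With ES 1 alone or ES 2 alone left out, the 96 h log2 fold change of Cldn6 was 0.96.

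The members differ in their content of G and C. Transcript GC content was 54.4 to 57.6% for Krt8, Krt18, Krt19 and the claudins, 52.3% for Krt7, 52.7% for Epcam, 50.2% for Grhl2 and 48.7% for Esrp1. Counts varied with GC content over a log2 range of 2.81 in ES 2, 1.47 in TCDD 24 h 1 and 1.34 in TCDD 72 h 1, and 0.323 to 1.13 in the others. With an offset for this trend, the 24 h estimates were 0.95 for Krt7, 0.43 for Cldn4, 0.40 for Krt8, 0.47 for Krt18, 0.61 for Krt19, 0.75 for Cldn7 and 0.93 for Cldn6. At 96 h they were 0.92 for Cldn6 and 0.75 for Cldn7, and these passed (edgeR adjusted p = 0.0218 and 0.0224). They were 2 of 608 genes called in that fit, 271 higher and 337 lower, against 13 genes without the offset. The offset fitted together with a replicate block called 280 genes at 96 h, with 0 members among them. The summed level of 7 mesothelial and epicardial markers was also higher in TCDD, at 84.8 to 112 CPM against 64.6 and 67.2 CPM in DMSO, with Upk1b, Tcf21 and Tbx18 below 1 CPM in every library. Most of the sum was Lrrn4 (49.3 and 52.0 CPM in DMSO, 62.0 to 92.3 CPM in TCDD) and Wt1 (10.7 and 11.3 CPM in DMSO, 14.4 to 22.7 CPM in TCDD). Of the 6 markers tested, 2 had estimates above 0 at 24 h and 3 each at 72 and 96 h, with medians of -0.17, 0.23 and -0.06, and 0 passed. The sum was 12.3 and 16.8 CPM in ES cells, and between ES and DMSO cells 4 of the 6 rose and 1 fell. The part of these markers in the members' levels was not tested.

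**Figure D3:**
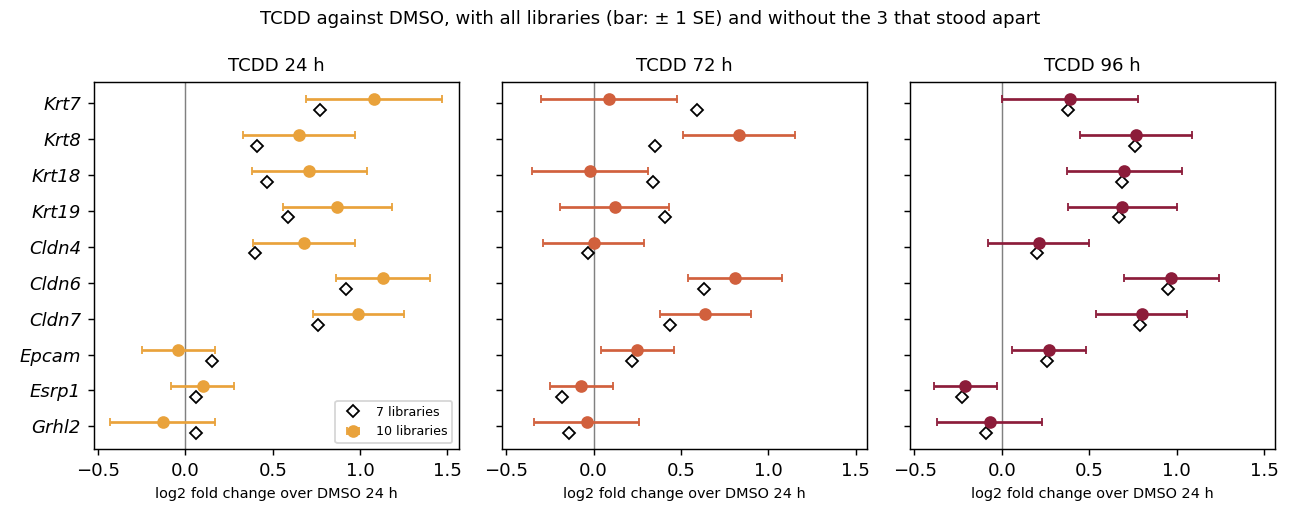
Log2 fold change of each gene over DMSO 24 h in TCDD 24, 72 and 96 h, as points with bars of 1 SE from all 10 libraries and as open diamonds from the 7 libraries left without ES 2, TCDD 24 h 1 and TCDD 72 h 1. Cldn6 lies at 1.13, 0.81 and 0.97 with all libraries and at 0.92 and 0.63 at 24 and 72 h without the 3.

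Between 24 and 96 h of TCDD edgeR called 0% of genes and 0 members, with 1761 genes (11.6%) and 0 members at an unadjusted p under 0.05. DESeq2 called 129 genes and limma-voom 0, with 0 members. Krt7, Cldn4 and Esrp1 had both 96 h libraries below both 24 h libraries, as did 29.4% of all genes, with log2 fold changes of -0.69 ± 0.39, -0.47 ± 0.29 and -0.31 ± 0.18 (adjusted p = 0.482, 0.509 and 0.48). Epcam was above, as were 31.2% of all genes (0.32 ± 0.21, adjusted p = 0.516). The other 6 members had estimates from -0.19 for Cldn7 to 0.12 for Krt8. Without the 3 libraries that stood apart, the estimates were -0.39 for Krt7 and 0.35 for Krt8. Those of the other members ran from -0.29 for Esrp1 to 0.22 for Krt18.

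Krt8 and Krt18 kept a near-fixed proportion to each other within libraries, with 1 exception. The count of Krt8 was 1.38 to 1.67 times that of Krt18 in 9 libraries and 4.78 times in TCDD 72 h 1. In that library Krt8 was the highest of all 10 libraries, while Krt18, Krt7 and Krt19 were the lowest of the 8 differentiated libraries. Rn45s was highest in that library too, as given above. The nuclear RNA Malat1 was at 2777 CPM there against 18.3 to 418 CPM in the others, and Neat1 at 259 CPM against 8.23 to 32 CPM. The part of these differences in the keratin ratio was not tested. Krt18 was 1.64 and 1.68 times Krt19 in ES cells and 8.55 to 10.8 times in the other 8 libraries, TCDD 72 h 1 included.

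**Figure D4:**
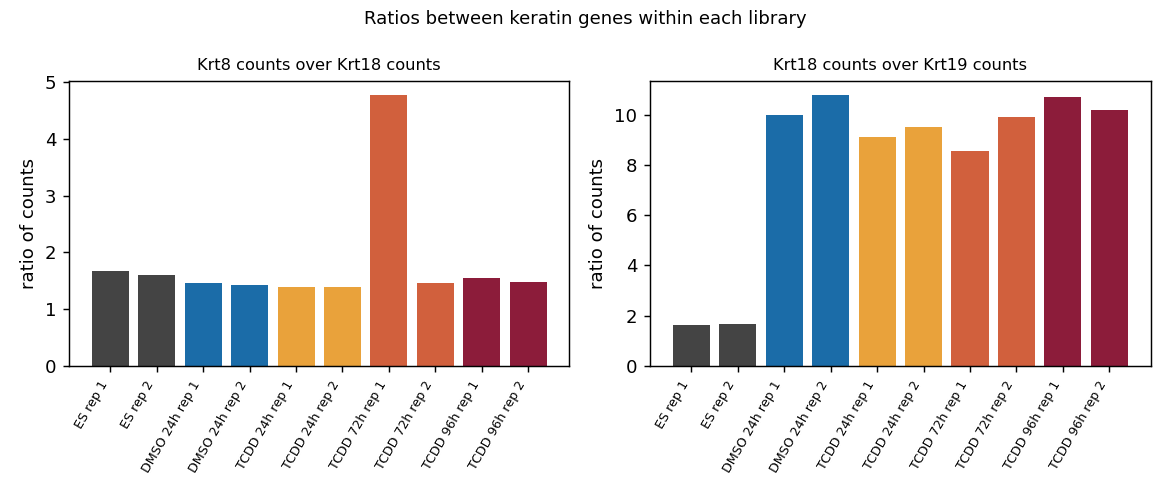
Ratios of counts between keratin genes in each of the 10 libraries, as bars from 0. The ratio of Krt8 to Krt18 is 4.78 in TCDD 72 h replicate 1 and at most 1.67 elsewhere, and the ratio of Krt18 to Krt19 is 1.64 and 1.68 in ES cells and at least 8.55 elsewhere.

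Among 10134 other genes with a mean of at least 5 CPM, the profile nearest that of Krt8 over the 10 libraries was that of Tmem54, with a root mean square difference of 0.184 between centred log2 CPM values. Lef1 (0.225), Flt1 (0.228), Car4 (0.229) and Mmp25 (0.251) followed. Tmem54, a gene for a membrane protein, measured 0.222 and 0.343 CPM in ES cells, 11.9 and 11.6 CPM in DMSO, and 16.5 to 24.1 CPM in TCDD. Like Krt8, it was above both DMSO libraries in all 6 TCDD libraries. Without TCDD 72 h 1, Krt18 was the nearest gene to Krt8, at 0.0884. With that library Krt18 ranked 43, with Krt8 itself counted as rank 1, at 0.514.

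Of 7 further lists of epithelial, junction and mesenchymal genes, each held genes that did not pass between ES and DMSO cells. Beside the counts below, 15.5% of all tested genes rose and 15.5% fell. Of 14 other keratins 9 were tested, of which 3 rose, 1 fell and 5 did not pass, with a median log2 fold change of 0.76. Krt20, an intestinal keratin, rose from 0.546 to 3.88 CPM (2.80 ± 0.56, adjusted p = 0.00596), Krt14, a basal keratin, rose from 0.427 to 1.39 CPM (adjusted p = 0.0107), and Krt17 fell from 15.5 to 5.80 CPM (adjusted p = 0.0166). Krt80 rose from 1 count in both ES libraries together to 38 in DMSO (adjusted p = 0.00194). Of 14 other claudins 8 were tested, of which 5 rose and 2 fell, with a median of 2.18. Cldn3, a sealing claudin, rose from 0.798 and 1.52 CPM to 15.3 and 14.1 CPM (3.67 ± 0.39, adjusted p = 0.000244), and Cldn5, the claudin of endothelium, rose by 2.98 ± 0.30 (adjusted p = 0.000197). Cldn23 rose from 2 to 23 counts (adjusted p = 0.00583) and Cldn19 fell from 87 to 4 counts (adjusted p = 0.000335).

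All 14 genes for other tight junction and polarity proteins were tested, of which 6 rose, 2 fell and 6 did not pass, with a median of 0.68. The junction scaffold cingulin, Cgn, rose from 16.4 to 65.3 CPM (1.99 ± 0.20, adjusted p = 0.000209), with smaller rises of Marveld3 (1.78), Cgnl1 (1.47) and Crb3 (1.47). Of 15 adherens junction and desmosome genes 14 were tested, of which 5 rose and 0 fell, with a median of 0.18. Dsp, the desmosomal linker of keratin filaments, rose from 10.9 to 92.1 CPM (3.08 ± 0.29, adjusted p = 0.000128), and Dsc2 (2.30), Ppl (2.01) and Pkp2 (1.06) rose too. Cdh1, which encodes E-cadherin and is also present in ES cells, measured 443 and 449.5 CPM in ES cells and 368 and 405 CPM in DMSO, a log2 fold change of -0.21 ± 0.17 (adjusted p = 0.382).

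Of 10 other epithelial regulators 9 were tested, of which 3 rose and 2 fell, with a median of 0.61. Among relatives of the members, Grhl1 (1.92, adjusted p = 0.000776) and Esrp2 (1.59, adjusted p = 0.00193) rose, and Grhl3 fell (-1.02, adjusted p = 0.0101). Klf5, a factor of ES cells and epithelia, fell from 166 to 24.3 CPM (-2.77 ± 0.25, adjusted p = 0.000108). Of 10 genes for epithelial surface and trafficking proteins 5 rose and 3 fell, with a median of 0.93 and 6 estimates above 0. Genes were named by smallest p, so those named here do not stand for the 3 that fell. Lad1, a basement membrane anchor protein, rose from 3.02 to 22.3 CPM (2.89 ± 0.22, adjusted p = 5.45e-05), and Prss8 (2.14) and Myo5b (1.56) rose as well. These lists were described by their counts, and their members were not tested as sets.

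Some mesenchymal genes rose beside the epithelial ones. Of 9 factors and markers of epithelial to mesenchymal transition, 4 rose, 1 fell and 4 did not pass, with a median of 0.57. Zeb2 rose from 7 counts in ES cells to 260 in DMSO (4.89 ± 0.53, adjusted p = 0.000262), and Cdh2, which encodes N-cadherin, rose from 0.826 to 9.34 CPM (adjusted p = 0.000149). Twist2 had 0 counts in the ES libraries and 38 in DMSO, at least 10.1-fold higher against a floor of 3 counts over the group (adjusted p = 0.00238), and Fn1 fell (-1.25, adjusted p = 0.00352). Zeb1 measured 24.7 and 11.9 CPM in ES cells and 9.54 and 10.04 CPM in DMSO (-0.90 ± 0.35, adjusted p = 0.0819).

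In TCDD, 0 genes of these lists passed in any of the 3 comparisons with edgeR. Zeb1 measured 3.96 and 5.07 CPM at 24 h, 7.11 and 8.999 CPM at 72 h, and 5.21 and 7.61 CPM at 96 h, all below both DMSO libraries. The log2 fold changes of Zeb1 were -1.11, -0.28 and -0.61, each ± 0.36 (adjusted p = 0.521, 0.8 and 0.595). Zeb2 measured 1.23 and 2.57 CPM at 24 h, 3.55 and 3.46 CPM at 72 h, and 2.21 and 3.58 CPM at 96 h, against 4.34 and 5.64 CPM in DMSO. All 6 TCDD libraries were again below DMSO, with log2 fold changes of -1.38 ± 0.38, -0.50 ± 0.37 and -0.78 ± 0.37 (adjusted p = 0.521, 0.595 and 0.448). The list of 9 factors and markers that holds Zeb1 and Zeb2 was mixed. Of the 9, 3 had estimates above 0 at 24 h and 4 each at 72 and 96 h. Their median log2 fold changes were -0.64, -0.14 and -0.31. Cdh1 was above DMSO in all 6 TCDD libraries, at 492 to 551 CPM, with log2 fold changes of 0.49, 0.42 and 0.43, each ± 0.17 (adjusted p = 0.521, 0.312 and 0.35). Of all tested genes, 11.3% were above both DMSO libraries in all 6 TCDD libraries and 10.2% were below. Cldn3 measured 29.9 and 18.3 CPM at 24 h, 14.4 and 10.02 CPM at 72 h, and 11.5 and 9.98 CPM at 96 h. Both of its 24 h libraries were above DMSO, as in 35.5% of all tested genes. Both of its 96 h libraries were below, as in 32.2%. The log2 difference of Cldn3 between 96 and 24 h was -1.16 ± 0.33 (edgeR adjusted p = 0.292).

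**Figure D5:**
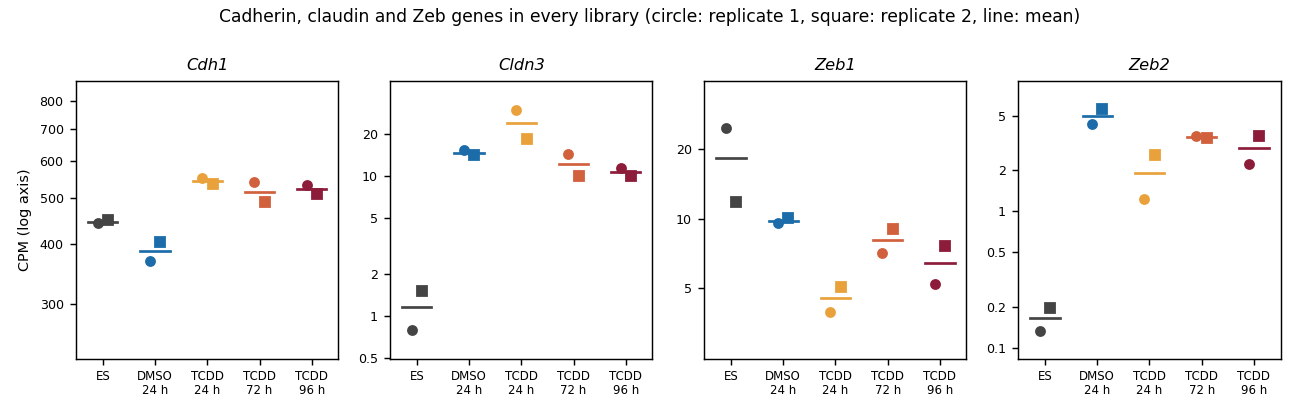
Levels of Cdh1, Cldn3, Zeb1 and Zeb2 in CPM (log axis) in all 10 libraries, with circles for replicate 1, squares for replicate 2 and lines at group means. In all 6 TCDD libraries Cdh1 lies above both DMSO libraries, as do 11.3% of all tested genes. Zeb1 and Zeb2 lie below both, as do 10.2%.

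Markers of other cells that carry these keratins and claudins were read beside the members. Of 9 trophectoderm and trophoblast markers, the summed level was 146 and 181 CPM in ES cells, 158 and 164 CPM in DMSO and 98.7 to 187 CPM in TCDD, with Elf5 and Tpbpa below 1 CPM in every library. Tfap2c made up most of it in ES and DMSO cells, at 110 and 142 CPM in ES cells and 114 and 111 CPM in DMSO, and measured 38.3 to 55.2 CPM in TCDD for 72 and 96 h. Of the 7 markers tested, 2 rose from ES to DMSO cells and 0 fell. Cdx2, a trophectoderm and posterior mesoderm factor, rose from 0.187 to 4.17 CPM (4.45 ± 0.37, adjusted p = 7.45e-05), and Hand1, a factor of trophoblast and heart, rose from 3.18 to 17.9 CPM (2.49 ± 0.33, adjusted p = 0.000819). The sum of 11 endoderm markers was 19.7 to 30.0 CPM over all libraries, with Afp, Apoa4 and Sox17 below 1 CPM, and of the 9 tested 2 rose and 4 fell between ES and DMSO cells. The sum of 7 stratified epithelium markers was 2.11 to 5.50 CPM, with Trp63, Krt5, Krt15, Krt1 and Dsg3 below 1 CPM. The stratified sum was 2.11 and 2.35 CPM in ES cells and 3.73 and 4.16 CPM in DMSO. The part of these cells in the members' levels was not tested.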

How the data were processed

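Per the labels' protocols, TRIzol RNA was poly(A)-selected, made into dUTP stranded libraries and sequenced as single reads of 51 bases. The authors deposited whole-number counts per gene, not normalized. TopHat, edgeR, bcl2fastq, CASAVA 1.8 and the build mm10 are listed in the submitters' processing notes. No source used here gives the counting tool or its strand setting. One unnamed row (0.000201 to 0.00285% of counts) was left out.

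Counts of all 10 libraries were tested with edgeR 4.0.16 (R 4.3.3; TMM factors, filterByExpr, quasi-likelihood test, 1 mean per group, 5 residual degrees of freedom), two-sided, with Benjamini-Hochberg adjustment over 15175 genes and a threshold of 0.05. CPM use TMM-scaled library sizes and exon lengths per kilobase come from the annotation. A count of 0 allows up to 0.0962 to 0.196 CPM, counting error only. The script was tested on simulated counts. Coordinates are RefSeq GRCm38 spans matched by Entrez identifier.

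The members and gene lists were chosen with earlier results of these data known. Named genes were the 10 members, up to 4 genes of each list by smallest p between DMSO and ES cells, Cdh1, Zeb1, Zeb2, Cldn3 and the 5 genes nearest Krt8. A gene picked by this rule is not reported here. Alternatives were RLE and upper quartile factors, no filter, 1 CPM in 2 libraries, DESeq2 1.42.0, limma-voom 3.58.1, only the libraries compared, a replicate block, a GC offset (loess of span 0.3), a minimum fold of 2 and each library left out. A fit without the 3 libraries that stood apart was a further alternative, and those 3 were chosen from these same data. The GC offset with the block was added after seeing the data.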

Additional observations from a re-analysis of the deposited data

Results flagged for a closer look

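Esrp1 lay on opposite sides of DMSO at 2 exposure times. Both TCDD 24 h libraries lay above both DMSO libraries, as in 35.5% of all genes. Both TCDD 96 h libraries lay below them, as in 32.2%. The share of genes with both patterns was not computed. The log2 fold changes over DMSO were 0.10 and -0.21, each ± 0.18 (edgeR adjusted p = 0.764 and 0.783). No DMSO group at 96 h was among the groups. The direct comparison of 96 h with 24 h gave a log2 fold change of -0.31 ± 0.18 and did not pass edgeR's test (adjusted p = 0.48).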

How the results depend on the processing

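Between DMSO and ES cells, 8 members passed in all 21 alternatives, Cldn4 in 18 and Epcam in 14. Genes called were 4697, against 2337 with only the 4 libraries compared and 8027 without the 3 libraries that stood apart, and 1902 to 7736 with single libraries left out (8 to 10 members).

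In TCDD the count of genes called moved more. With no filter it was 1 at 24 h, 59 at 72 h, 98 at 96 h and 2 between 96 and 24 h. With DESeq2 it was 41, 310, 249 and 129 in that order, with the GC offset 6, 467, 608 (2 members) and 68, and without the 3 libraries 766 (6 members), 1967 (6 members), 4397 (8 members) and 1828 (2 members). The fit without the 3 libraries leaves a single library in the ES, TCDD 24 h and TCDD 72 h groups. All its counts rest on the spread of the DMSO and TCDD 96 h pairs. They show dependence on the fit only and are not read as calls. With only the 4 libraries compared the count of genes called was 0 at 72 h and 4383 at 96 h (8 members). Leaving out single libraries gave 0 to 1 genes at 24 h, 0 to 969 at 72 h, 0 to 376 at 96 h (0 to 1 members) and 0 to 97 between 96 and 24 h; the cause was not tested.

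Same-numbered libraries did not consistently deviate together (r from -0.75 to 0.45 across genes). The labels do not say whether replicate numbers mark a shared batch. These values cannot decide it, since each group holds only 2 libraries. With the replicate number as a block, 0 genes passed at 72 h and 0 at 96 h. With the block and the GC offset 149 passed at 72 h, 280 at 96 h (0 members, against 2 with the offset alone) and 3 between 96 and 24 h.

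Directions turned for estimates near 0. At 72 h Krt18 was 0.01 with upper quartile factors and 0.34 without the 3 libraries, Krt7 -0.04 with limma-voom and Krt19 -0.01 with the block and GC offset. At 24 h Epcam was 0.15 and Grhl2 0.06 without the 3 libraries. Between 96 and 24 h Krt18 was 0.01 with the filter of 1 CPM and with limma-voom, 0.18 with the GC offset, with and without the block, and 0.22 without the 3 libraries. Krt19 was there 0.02 with the GC offset, 0.01 with the block added and 0.08 without the 3, where Cldn6 was 0.02, Cldn7 0.03 and Grhl2 -0.14. With single libraries left out, 24 h estimates ran from -0.25 to 0.15 for Epcam and -0.33 to 0.05 for Grhl2. At 72 h they ran from -0.58 to 0.36 for Krt18, -0.75 to 0.61 for Krt7, -0.30 to 0.43 for Krt19, -0.12 to 0.01 for Grhl2 and -0.06 to 0.04 for Cldn4. Between 96 and 24 h they ran from -0.23 to 0.23 for Krt18, -0.42 to 0.09 for Krt19, -0.35 to 0.04 for Cldn6, -0.41 to 0.05 for Cldn7, -0.13 to 0.25 for Grhl2 and -0.09 to 0.36 for Krt8.

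With 2 libraries a group, 5 residual degrees of freedom and a single DMSO time, a change that missed the threshold is not shown to be absent.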
